A study of Mus musculus with 7 samples.

Results

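The genes of the tumour necrosis factor (TNF) superfamily, 15 ligands and 22 receptors, were followed in chromatin maps of mouse leukaemia cells with and without an inhibitor of the histone demethylase LSD1. Members were the protein-coding genes whose symbol begins with Tnfsf or Tnfrsf, together with Tnf, Lta, Ltb, Cd40 and Fas. These were 37 of the 21631 protein-coding genes on chromosomes 1 to 19 and X in the RefSeq table of the GRCm38 assembly. The rule uses symbols only and no measured value. Genes of the family with other kinds of symbol (Cd27, Fasl and Ltbr, for example) were kept as a separate list.

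TNF superfamily ligands are mostly membrane-anchored trimers, some of them shed, that bring together receptors on the same or a neighbouring cell. The receptors either carry a death domain, which can start caspase-driven cell death, or bind TRAF adaptors, which lead to NF-kB and MAP kinase signalling, and a few receptors are decoys. In blood-forming tissue the family sets inflammation, the survival of B cells, T cell costimulation and cell death, and in myeloid cells TNF itself is one of the early products of an inflammatory response.

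The cells were leukaemia cells from BALB/c mouse bone marrow, and both treatments carried the same drivers, mutant CSF3R and mutant CEBPA delivered by retrovirus. CSF3R binds granulocyte colony-stimulating factor, and CEBPA is a transcription factor of granulocytic commitment. The control culture received the solvent DMSO and the other 4 nM GSK-LSD1, an inhibitor of LSD1, each for 48 h. Antibodies to H3K4me1, H3K4me3 and H3K27Ac gave 6 libraries, 3 for each treatment, and 1 library was input. The labels give neither the number of mice or cultures behind them nor an untransduced control.

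The values are chromatin states. The 3 marks of a treatment had been combined into 1 segmentation, which gives every 200 bp bin of the genome 1 of 6 states, E1 to E6. There was thus 1 map per treatment, no replicate and no test, and every difference below is between these 2 maps. E3 was the background, covering 73.3% of the genome in DMSO and 70.1% in GSK-LSD1. E5 and E6 were the states concentrated at gene ends: E5 was 13.3 times as frequent there as in the genome at large in DMSO and 10.1 times under GSK-LSD1, and E6 9.45 and 7.85 times. E5 and E6 together are called TSS-type here, for the transcription start sites at which such states lie. The sources do not say which marks each state stands for, or whether both maps were fitted together. A state, E5 and E6 included, thus need not mean the same marks in both maps. E1 covered 0.483% of the genome in DMSO and 4.72% in GSK-LSD1, and E6 covered 0.217% and 2.08%. A state summed over a culture cannot tell a mark in more cells from more of the mark in each cell.

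Promoters of 5 members are shown because their loci span the responses seen: Tnf, Ltb and Tnfsf14 had the longest TSS-type regions at ligand starts in GSK-LSD1, Tnfrsf1b had the largest difference among receptors, and Tnfsf18 was background in both maps. Each is the 250 bases before the start, written 5′ to 3′ along the gene's strand, from RefSeq on GRCm38.p6. Capitals mark matches to the 7 short motifs searched. The Tnf sequence is chr17:35202008-35202257 on the minus strand, Ltb is chr17:35194257-35194506 on the plus strand and Tnfsf14 is chr17:57194182-57194431 on the minus strand. The Tnfrsf1b sequence is chr4:145246871-145247120 on the minus strand, and Tnfsf18 is chr1:161494407-161494656 on the plus strand.
Tnf: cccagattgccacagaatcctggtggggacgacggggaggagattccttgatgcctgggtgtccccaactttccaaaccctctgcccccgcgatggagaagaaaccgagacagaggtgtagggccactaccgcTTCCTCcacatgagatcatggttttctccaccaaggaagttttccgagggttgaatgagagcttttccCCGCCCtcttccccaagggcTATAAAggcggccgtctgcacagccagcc
Ltb: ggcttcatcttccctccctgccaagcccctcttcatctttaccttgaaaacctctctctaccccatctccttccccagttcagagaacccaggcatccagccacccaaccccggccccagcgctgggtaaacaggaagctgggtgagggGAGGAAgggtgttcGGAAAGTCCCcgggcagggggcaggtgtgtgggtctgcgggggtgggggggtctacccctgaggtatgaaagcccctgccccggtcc
Tnfsf14: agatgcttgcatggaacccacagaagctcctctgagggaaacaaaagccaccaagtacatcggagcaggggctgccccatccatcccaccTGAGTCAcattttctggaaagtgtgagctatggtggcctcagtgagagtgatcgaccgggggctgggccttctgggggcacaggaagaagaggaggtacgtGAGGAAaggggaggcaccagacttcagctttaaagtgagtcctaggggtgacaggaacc
Tnfrsf1b: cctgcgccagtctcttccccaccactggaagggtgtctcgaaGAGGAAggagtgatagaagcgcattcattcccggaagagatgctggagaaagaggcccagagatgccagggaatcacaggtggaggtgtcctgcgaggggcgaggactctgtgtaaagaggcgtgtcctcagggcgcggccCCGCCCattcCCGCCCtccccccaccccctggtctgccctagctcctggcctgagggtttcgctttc
Tnfsf18: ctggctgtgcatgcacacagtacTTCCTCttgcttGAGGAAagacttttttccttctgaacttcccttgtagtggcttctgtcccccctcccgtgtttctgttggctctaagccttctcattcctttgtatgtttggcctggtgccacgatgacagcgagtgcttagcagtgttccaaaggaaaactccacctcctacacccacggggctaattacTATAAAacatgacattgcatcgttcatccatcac

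In these sequences, with position -1 next to the start, Tnf had a TATA box (TATAAA) at -29 to -24, a GC box on the opposite strand at -49 to -44 and a PU.1 core on the opposite strand at -117 to -112. PU.1 is a transcription factor of the myeloid lineage. Ltb had an NF-kB match on the opposite strand at -87 to -78 and a PU.1 core at -101 to -96. Tnfsf14 had an AP-1 match at -160 to -154 and a PU.1 core at -59 to -54. Tnfrsf1b had GC boxes on the opposite strand at -67 to -62 and -57 to -52 and a PU.1 core at -208 to -203. Tnfsf18, with no marked chromatin in either map, also had a TATA box at -34 to -29 and PU.1 cores at -227 to -222, on the opposite strand, and at -215 to -210. None of these matches overlapped.

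Motifs were searched on both strands of the 33 promoters that RefSeq gives for 29 members and of all 21045 protein-coding promoters. The PU.1 core (GAGGAA) was in 11 of 33 member promoters (33.3%) and in 22.5% of all. The GC box (GGGCGG) was in 14 (42.4%) against 43.1%, and the CCAAT box (CCAAT) in 4 (12.1%) against 35.6%. The TATA box was in 6 (18.2%) against 11.7%, AP-1 (TGANTCA) in 6 (18.2%) against 6.17%, the NF-kB decamer in 4 (12.1%) against 7.99% and the C/EBP motif (TTGCNNAA) in 1 (3.03%) against 9.18%. The NF-kB matches were in Ltb, Tnfrsf8, Tnfrsf9 and Tnfrsf25, and the C/EBP match in Tnfrsf23. No motif was shared by all 3 genes of the Tnf cluster (Tnf, Lta and Ltb). The matches describe letters only. The other 8 members are Tnfsf4, Tnfsf9, Tnfsf12, Cd40, Tnfrsf10b, Tnfrsf11b, Tnfrsf22 and Tnfrsf26.

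TSS-type chromatin around the family was wider in the GSK-LSD1 map. Each gene's window took in everything within 20 kb of either gene end, between 42.0 and 80.4 kb for the members. Of the 37 members, 33 had more TSS-type area in GSK-LSD1, 1 had less (Tnfsf4) and 3 were equal (Tnfsf15, Tnfsf18 and Tnfrsf11b). Among all protein-coding genes 66.1% had more, so a wider area was the common outcome in this pair of maps. A difference of at least 2 kb was reached by 26 members (70.3%, 95% Wilson interval 54.2 to 82.5%, for the number of genes only) against 43.3% of all protein-coding genes. The interval treats the genes as separate, although some of their windows overlap. With overlapping members merged, 18 of 29 loci (62.1%) were at least 2 kb higher, with no share computed for all genes merged alike. No member was at least 2 kb lower, against 0.125% of all genes. The direction rests on E6: with E5 alone counted, 19 members had less and 13 more, and 6 (16.2%) were at least 2 kb higher, against 8.8% of all genes. Windows also hold other genes, since 24 of the 37 contain an end of another protein-coding gene. With only the bins nearest to each member, 12 (32.4%) were at least 2 kb higher, against 23.4% of all genes treated alike.

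The members also held more TSS-type chromatin in DMSO than the typical gene. Their median was 5.0 kb in DMSO and 8.2 kb under GSK-LSD1, against 3.4 and 5.4 kb for all protein-coding genes. Among the 15154 genes with some TSS-type area in DMSO, 61.1% were at least 2 kb higher, and 25 of the 34 members of that kind were (73.5%). The Wilson interval of this member share, 56.9 to 85.4%, includes the 61.1%, so the members did not stand clear of such genes. The median change was 3.6 kb for members, 1.4 kb for all genes and 2.6 kb for the genes with TSS-type area in DMSO. When each member was set against all genes of its own DMSO level, 22 were above the median change of their class, 13 below and 2 equal. The plot of change against DMSO level shows the members on both sides of the class medians, with the Tnf cluster, Tnfsf14 and Tnfrsf1b far above.

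**Figure D1:**
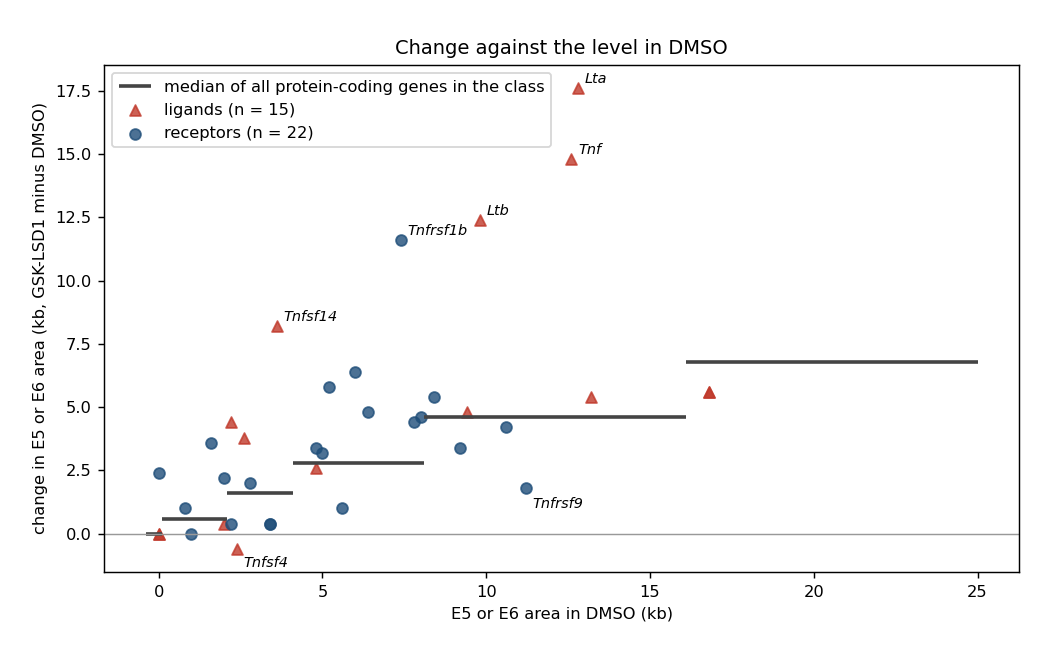
Change in TSS-type area (kb, GSK-LSD1 minus DMSO) against TSS-type area in DMSO (kb) for the 15 ligands (triangles) and 22 receptors (circles); horizontal bars are the medians of all protein-coding genes in each DMSO class. Lta (17.6 kb), Tnf (14.8 kb), Ltb (12.4 kb), Tnfrsf1b (11.6 kb) and Tnfsf14 (8.2 kb) lie highest and Tnfsf4 (-0.6 kb) lowest.

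The ligands were led by the Tnf cluster on chromosome 17, where Ltb (35194507 to 35196305), Tnf (35199367 to 35202007) and Lta (35203165 to 35205578) lie side by side. Tnf encodes the cytokine itself, Lta the secreted lymphotoxin alpha and Ltb the membrane protein with which lymphotoxin alpha forms its surface complex. The TSS-type area around Tnf was 12.6 kb in DMSO and 27.4 kb under GSK-LSD1. The area around Lta was 12.8 and 30.4 kb, and that around Ltb 9.8 and 22.2 kb. E5 around Tnf was 12.2 kb in DMSO and 0.4 kb under GSK-LSD1, and E6 was 0.4 and 27 kb. These windows share most of their bins and are not separate observations; as a single locus the area was 18.0 kb larger. They also hold ends of Lst1, and Nfkbil1 or Aif1. When only bins nearer to the member than to any other protein-coding gene were counted, the differences were 1.8 kb for Tnf, 2.6 kb for Lta and 2.6 kb for Ltb.

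In DMSO, Tnf and Ltb each had an E5 region of 3.0 kb at the start (35199601 to 35202600 and 35194401 to 35197400), with 2.2 kb of E4 between them. In GSK-LSD1 these were 1 region of 10.8 kb (35192801 to 35203600), of which all but the last 0.2 kb was E6. It covered both starts whose promoter sequences are printed above. The Lta start was in E2 in both maps, while the other end of Lta was in E4 in DMSO and in E6 in GSK-LSD1, inside the joined region. A further 3.2 kb of TSS-type chromatin beyond Lta (35222801 to 35226000) had no TSS-type bin in DMSO.

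Tnfsf14, a ligand that activates T cells through the receptor encoded by Tnfrsf14, had 3.6 kb of TSS-type area in DMSO and 11.8 kb in GSK-LSD1. Its start region was 2.2 kb in DMSO and 8.4 kb under GSK-LSD1. The longer region took in the gene's other end, which had lain in a separate E5 region of 1.4 kb. A new E6 region of 2.6 kb (chromosome 17, 57196601 to 57199200) lay upstream. An end of C3 also lies in the window, and 7.4 kb of the difference was in bins nearer to Tnfsf14 than to any other protein-coding gene.

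**Figure D2:**
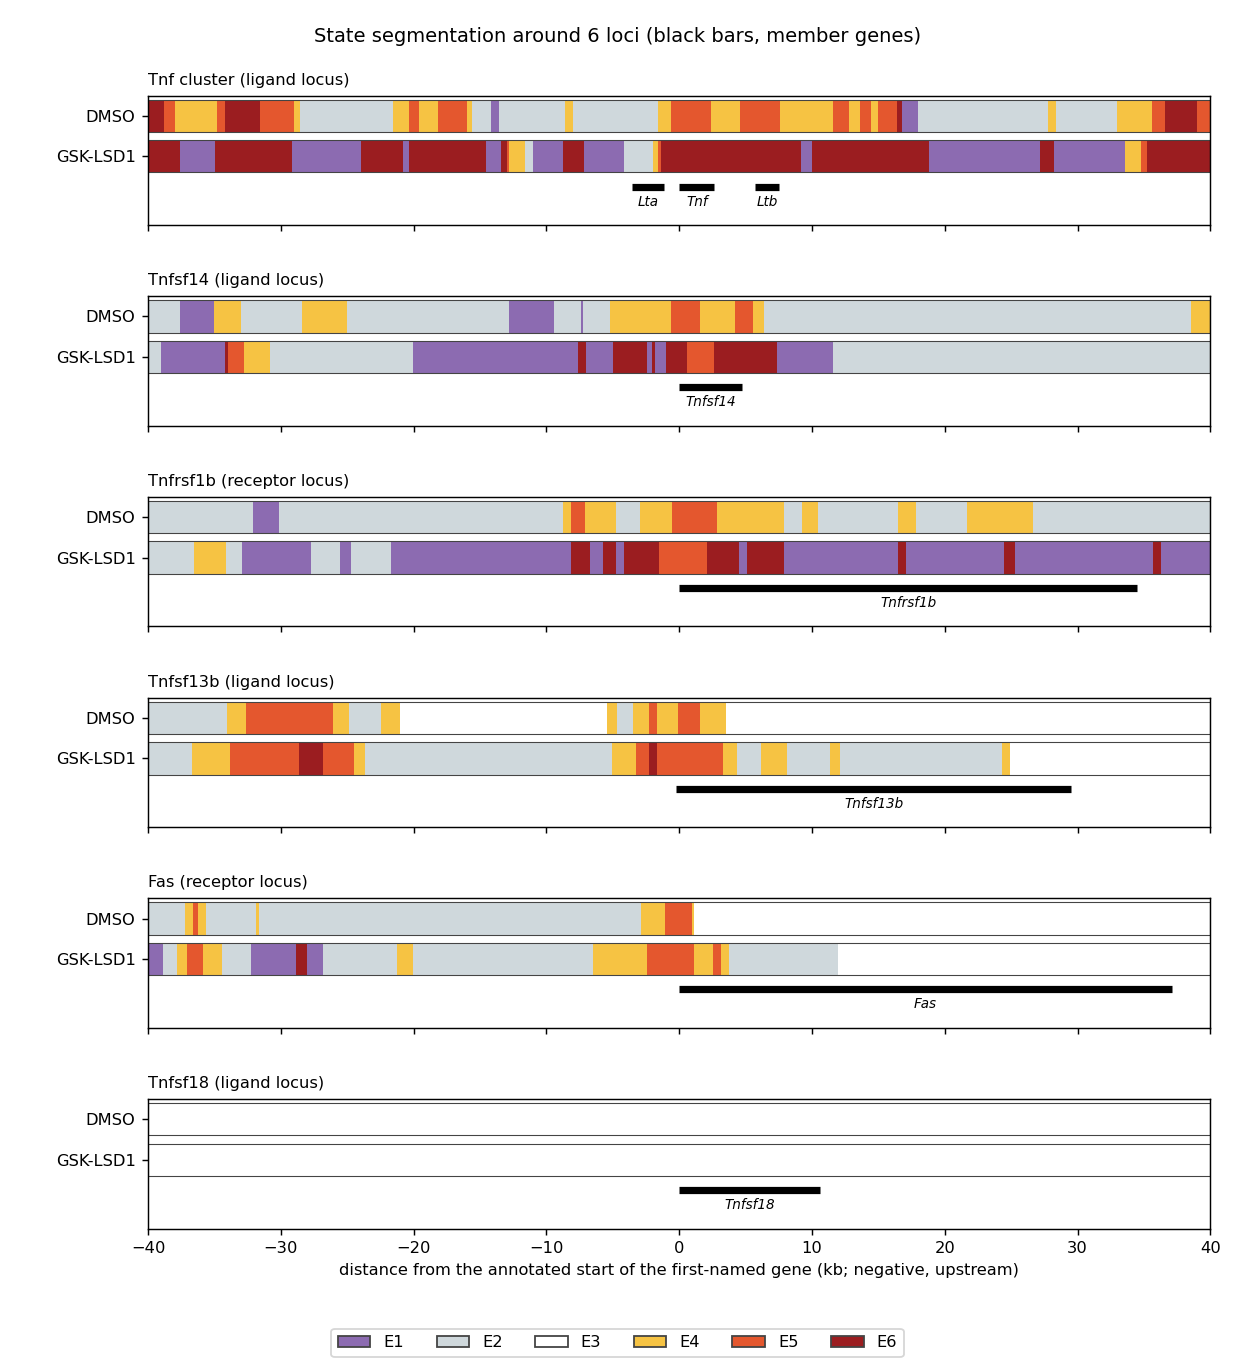
States E1 to E6 (colours) in DMSO and GSK-LSD1 over 40 kb either side of the start of 6 genes, with distance from the start in kb on the horizontal axis and black bars for the member genes. The separate E5 blocks at Tnf and Ltb in DMSO are 1 block of E6 in GSK-LSD1, Tnfrsf1b is surrounded by E1 and E6 in GSK-LSD1 only, and Tnfsf18 is E3 in both.

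Tnfsf13b encodes the B cell survival factor BAFF, and Tnfsf10 encodes TRAIL, the ligand of death receptors. Tnfsf13b had 2.2 kb of TSS-type area in DMSO and 6.6 kb in GSK-LSD1, nearly all E5 (6.0 kb). In DMSO it had regions of 1.6 and 0.6 kb, and in GSK-LSD1 a single region of 6.6 kb across the start. Less of its window was background, E3 being 60.8 kb in DMSO and 24.6 kb under GSK-LSD1. Tnfsf10 had 9.4 and 14.2 kb of TSS-type area, in 4 regions in each map.

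Tnfsf8, the ligand of the receptor encoded by Tnfrsf8, had 2.6 kb in DMSO and 6.4 kb under GSK-LSD1. Tnfsf9, a costimulatory ligand for T cells, had 4.8 and 7.4 kb. Tnfsf12 and Tnfsf13 are adjacent, and Tnfsfm13 is annotated over the span of both. Their areas were 13.2 and 18.6 kb for Tnfsf12, and 16.8 and 22.4 kb for both Tnfsf13 and Tnfsfm13. These windows overlap and hold the ends of up to 6 other protein-coding genes, among them Eif4a1 and Senp3. With only the nearest bins the differences were 1.4 kb for Tnfsf12, 0.4 kb for Tnfsf13 and 1.8 kb for Tnfsfm13.

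The other 4 ligands differed little or not at all. Tnfsf11, which drives osteoclast formation, had 2.0 kb in DMSO and 2.4 kb under GSK-LSD1. Tnfsf4, a costimulatory ligand of activated antigen-presenting cells, had 2.4 and 1.8 kb and was the single member with less. Tnfsf15 and Tnfsf18, both costimulatory ligands, had none in either map. They were not alike otherwise: all 50.8 kb around Tnfsf18 were E3 in both maps, whereas around Tnfsf15 there were 12.6 kb of E1 in GSK-LSD1 only.

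**Figure D3:**
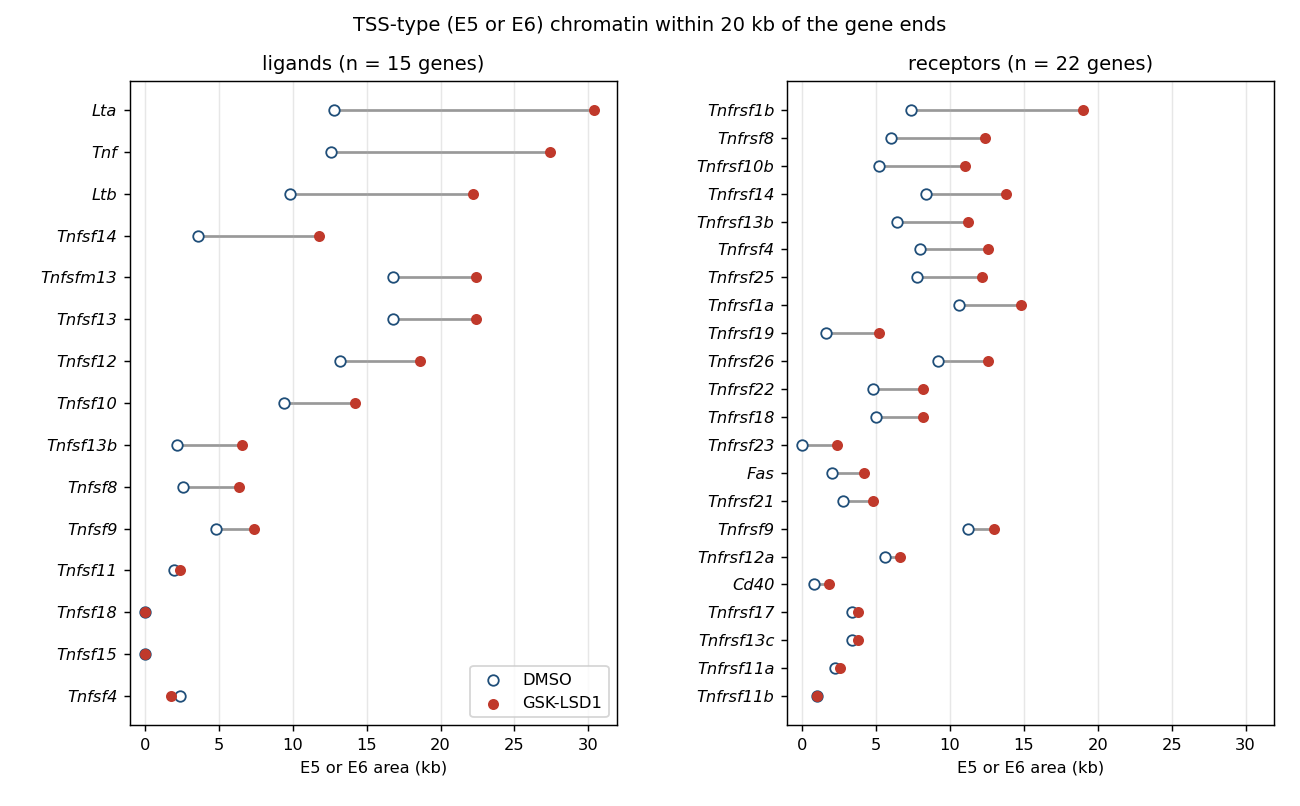
TSS-type (E5 or E6) area in kb within 20 kb of the gene ends for each of 15 ligands and 22 receptors, open circles for DMSO and filled circles for GSK-LSD1, 1 value per map. Lta runs from 12.8 to 30.4 kb and Tnfrsf1b from 7.4 to 19.0 kb, while Tnfsf15, Tnfsf18 and Tnfrsf11b do not move.

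Among receptors, both TNF receptors had more TSS-type chromatin in GSK-LSD1, but to different extents. Tnfrsf1b, the TNF receptor that signals through TRAF2 and is common on blood cells, had 7.4 kb in DMSO and 19.0 kb under GSK-LSD1. Its start region was 3.4 kb (E5) in DMSO and 8.6 kb in GSK-LSD1, with E5 over the start and E6 on both sides. An end of Vps13d also lies in the window, and 11.4 kb of the difference was in bins nearest to Tnfrsf1b. Inside the gene, a region of 2.8 kb (chromosome 4, 145239001 to 145241800) that was E4 in DMSO was E6 in GSK-LSD1. Tnfrsf1a, the TNF receptor with a death domain, had 10.6 and 14.8 kb. Ends of Scnn1a and Plekhg6 lie in its window, and its nearest bins differed by 1.6 kb. Its start already lay in a region of 8.6 kb in DMSO, which was 10.2 kb in GSK-LSD1.

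Tnfrsf8, which lies next to Tnfrsf1b and is known as a marker of activated lymphocytes, had 6.0 kb in DMSO and 12.4 kb under GSK-LSD1. Its window overlaps that of Tnfrsf1b, and its nearest bins alone differed by 1.4 kb. The death-domain receptors were uneven. Tnfrsf10b, the mouse TRAIL receptor, had 5.2 and 11.0 kb, and 5.4 kb of that difference lay in its nearest bins. Tnfrsf25 had 7.8 and 12.2 kb, with none of the difference in its nearest bins. Fas, the receptor of Fas ligand, had 2.0 and 4.2 kb, and Tnfrsf21 had 2.8 and 4.8 kb. At Fas the start region was 2.0 kb in DMSO and 3.6 kb under GSK-LSD1, E5 in both, and no E1 or E6 lay in its window in either map.

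Receptors of lymphocyte costimulation ranged from 1.0 to 5.4 kb in their difference. Tnfrsf14, a receptor of Tnfsf14, had 8.4 and 13.8 kb, with 1.4 kb of the difference in its nearest bins and an end of Prxl2b in its window. Tnfrsf4 and Tnfrsf18, which are neighbours, had 8.0 and 12.6 kb and 5.0 and 8.2 kb, but only 0 and 0.6 kb of the difference lay in their nearest bins. Cd40, through which T cells activate B cells and myeloid cells, had 0.8 kb in DMSO and 1.8 kb under GSK-LSD1, in 1 region over a gene end. In DMSO the members below it were Tnfsf15, Tnfsf18 and Tnfrsf23, all at 0.

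Tnfrsf9, a costimulatory receptor, was the member that lost most TSS-type area, 3.6 kb where no other lost more than 0.6 kb. Its area was 11.2 kb in DMSO and 13.0 kb under GSK-LSD1, with 5.4 kb gained beside that loss. The E5 region just inside its upstream start (chromosome 4, 150920601 to 150921800) was E1 in GSK-LSD1, and the region at the downstream start (150927999) was 2.0 kb in DMSO and 1.4 kb under GSK-LSD1. With only the nearest bins the area was 2.0 kb smaller in GSK-LSD1 (-2.0 kb), so the net gain of the window lay nearer to other genes; an end of Park7 lies in it.

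The receptors of B cell survival factors gave small differences, with 1 exception. Tnfrsf13b, a receptor for the factors encoded by Tnfsf13 and Tnfsf13b, had 6.4 and 11.2 kb, 1.4 kb of the difference in its nearest bins. Tnfrsf13c, the BAFF receptor, and Tnfrsf17, the plasma cell receptor of the group, each had 3.4 kb in DMSO and 3.8 kb under GSK-LSD1. Neither differed in its nearest bins.

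Of the receptors best known from bone and other solid tissues, Tnfrsf19 had 1.6 and 5.2 kb, Tnfrsf12a 5.6 and 6.6 kb, Tnfrsf11a 2.2 and 2.6 kb and Tnfrsf11b, the decoy for the ligand encoded by Tnfsf11, 1.0 kb in both maps. Tnfrsf22, Tnfrsf23 and Tnfrsf26 form a cluster of mouse receptor genes on chromosome 7. Tnfrsf23 had no TSS-type bin in DMSO and 2.4 kb in GSK-LSD1. Tnfrsf22 had 4.8 and 8.2 kb and Tnfrsf26 9.2 and 12.6 kb. Their windows overlap, and as a single locus the area was 5.8 kb larger. With only the nearest bins the differences were 0.8 kb for Tnfrsf23, 1.4 kb for Tnfrsf22 and 2.0 kb for Tnfrsf26.

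The area in E1 and E6, the states that spread most between the maps, separated the members more widely than TSS-type area. The Tnfrsf1b window of 74.8 kb held no E1 or E6 in DMSO and 65.4 kb in GSK-LSD1, 51.8 kb of it E1 and 13.6 kb E6. Tnfrsf8 had 3.2 and 48.2 kb, and as a single locus the pair was 91.8 kb higher. Around Tnf the area was 2.2 kb in DMSO and 38.2 kb under GSK-LSD1, of a window of 43.0 kb. Lta, Ltb, Tnfsf8 and Tnfsf10 were 35.6, 35.0, 35.2 and 33.2 kb higher. For Tnfsf8 and Tnfsf10, which have no other protein-coding gene end in their windows, those differences were much larger than in TSS-type area.

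At the other extreme, 10 members had no E1 or E6 in either map: the ligands Tnfsf4, Tnfsf11 and Tnfsf18, and the receptors Cd40, Fas, Tnfrsf11a, Tnfrsf11b, Tnfrsf17, Tnfrsf19 and Tnfrsf25. Their TSS-type area, where they had any, was E5 throughout. It was 0.4 to 4.4 kb larger in GSK-LSD1 at 7 of them, equal at Tnfrsf11b and smaller at Tnfsf4. An E1 and E6 area at least 2 kb larger was found at 24 members (64.9%) against 51.4% of all protein-coding genes. By role it was found at 11 of 15 ligands (73.3%) and 13 of 22 receptors (59.1%). Among all genes with TSS-type area in DMSO the share was 70.6%, and among the members of that kind 64.7%, so by this measure the members did not stand above other genes of that kind. No member had less E1 and E6 area in GSK-LSD1.

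**Figure D4:**
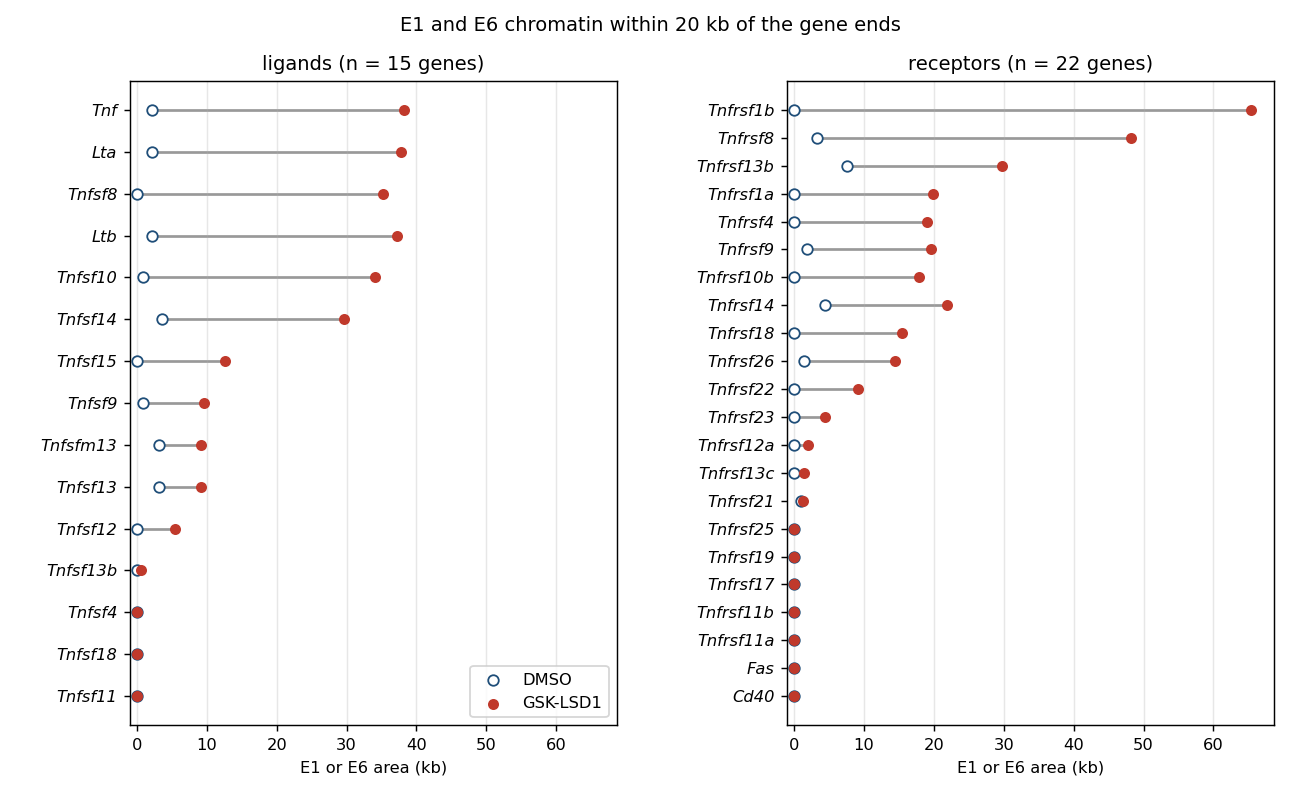
Area in E1 or E6 (kb) within 20 kb of the gene ends for 15 ligands and 22 receptors, open circles for DMSO and filled circles for GSK-LSD1, 1 value per map. Tnfrsf1b goes from 0 to 65.4 kb and Tnf from 2.2 to 38.2 kb, while 10 members are at 0 in both.

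At the gene ends themselves little switched on or off. A TSS-type state lay at either end of 26 members in DMSO (70.3%) and 28 in GSK-LSD1 (75.7%), against 51.7 and 54.8% of all protein-coding genes. The 2 members with such an end in GSK-LSD1 only were Lta and Tnfsf13b, both ligands, against 4.11% of all genes. Neither was a change at a start of the promoter table. For Lta it was the 3′ end. For Tnfsf13b it was the 5′ end of the gene (10006229), in E4 in DMSO and E5 in GSK-LSD1. The Tnfsf13b starts in the promoter table (10006467 and 10006633) were in E5 in both maps. No member had a TSS-type end in DMSO only, against 0.985% of all genes.

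The change at the ends was mostly within the TSS-type pair. Of the 28 member ends found in E5 in DMSO, 11 lay in E6 under GSK-LSD1 (39.3%) and 17 stayed E5, whereas 49.0% of such ends of all genes were E6. Among those that stayed E5, Tnfsfm13 shares an end with Tnfsf13 and the other with Tnfsf12. These shared ends are counted for each gene, which lowers the member share. At the starts of the promoter table, which can lie in another bin than the gene end, Tnf, Ltb, Tnfsf14, Tnfrsf1a, Tnfrsf8 and Tnfrsf18 went from E5 to E6. The table's starts of Tnfrsf1b, Tnfsf8, Fas and Tnfsf13b stayed E5, although the gene end next to the Tnfsf8 start went from E5 to E6. Tnfsf9 had an end in E6 in DMSO and E5 in GSK-LSD1, which 5 of 889 E6 ends did genome-wide.

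Regions already at the starts were longer. Of 21 annotated member starts with a TSS-type region within 1 kb in both maps, 19 had a longer region in GSK-LSD1, 1 a shorter one (the downstream start of Tnfrsf9) and 1 an equal one (Tnfrsf13c). The median length was 2.2 kb in DMSO and 4.4 kb under GSK-LSD1. Over the 11982 such starts of all protein-coding genes, 88.7% were longer, with medians of 3.4 and 5.0 kb. Tnf and Ltb enter the median of GSK-LSD1 with the same joined region, and the paired starts of Tnfsf13b share a region in both maps.

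Counting each bin once, the member windows covered 1863.8 kb. TSS-type chromatin took 158.2 kb of it in DMSO (8.49%) and 266.2 kb in GSK-LSD1 (14.3%), against 5.9 and 9.1% around all protein-coding genes. The gain was in E6, from 15.2 to 152.2 kb, while E5 was 143.0 and 114.0 kb. E1 was 14.8 kb in DMSO and 271.4 kb under GSK-LSD1, and E2, E3 and E4 each covered less in GSK-LSD1 than in DMSO. Of the 158.2 kb in DMSO, 151.6 kb (95.8%) was TSS-type in both maps.

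**Figure D5:**
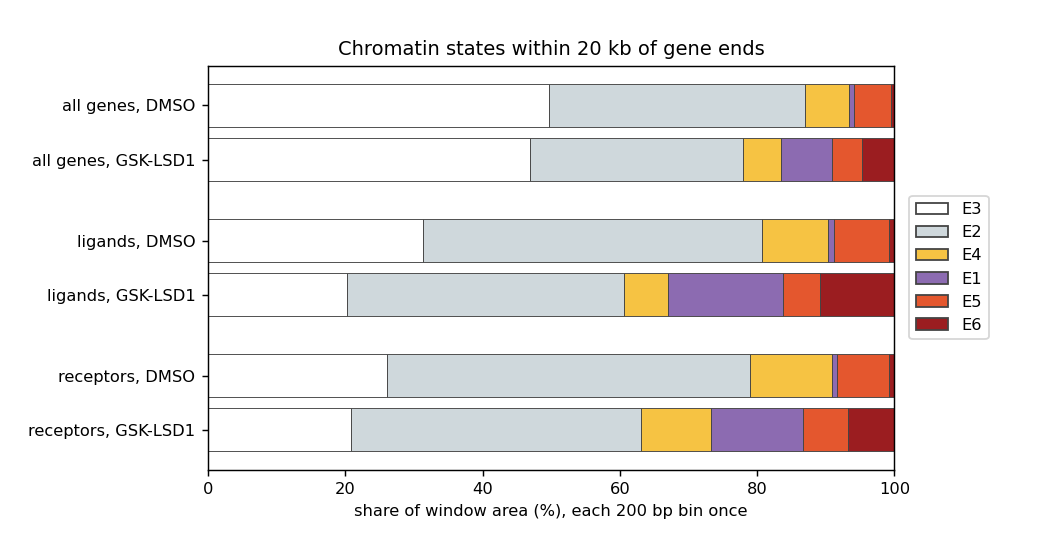
Share of window area (%) in each state, each 200 bp bin counted once, around all protein-coding genes, the 15 ligands and the 22 receptors in DMSO and in GSK-LSD1. E6 is 0.811% of the ligand area in DMSO and 10.9% in GSK-LSD1, and 0.818 and 6.74% of the receptor area.

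New TSS-type bins came mainly from E4. In member windows 114.6 kb was TSS-type in GSK-LSD1 only and 6.6 kb in DMSO only. Of the former, 81.5% had been E4 in DMSO, 14.8% E2, 2.79% E1 and 0.873% background. Around all protein-coding genes the share from E4 was 74.9%. At Tnf and Ltb this was the E4 between and beside the E5 regions, and at Tnfrsf1b the E4 on both sides of the start.

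Whole regions show the same split between widened and new. The member windows touched 74 TSS-type regions in DMSO, 3 of which overlapped none in GSK-LSD1 (4.05%, against 5.53% of regions genome-wide). They touched 100 in GSK-LSD1, of which 40 overlapped none in DMSO (40.0%, against 36.2% genome-wide). Of these 40, 23 (57.5%) were more than 2.5 kb from every annotated gene end, against 69.3% of such regions genome-wide, which are not limited to the surroundings of genes. The median length of all regions in the windows was 2.0 kb in DMSO and 1.8 kb under GSK-LSD1. In the Tnfrsf1b window 5 regions of GSK-LSD1 overlapped none in DMSO, from 0.6 to 2.8 kb long and all E6.

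How far ligands and receptors differed varied with the window, and their difference has no test. A TSS-type area at least 2 kb larger was found at 11 of 15 ligands (73.3%, Wilson interval 48.0 to 89.1%) and 15 of 22 receptors (68.2%, 47.3 to 83.6%). The share of all protein-coding genes was 43.3%. The median change was 4.8 kb for ligands and 3.3 kb for receptors, and without Tnf, Lta and Ltb the ligand median was 4.1 kb. In E1 and E6 area the medians were 8.8 and 6.8 kb. Counted against genes of their own DMSO level, 8 ligands were above the class median, 5 below and 2 equal, and 14 receptors were above and 8 below. Smaller windows set the roles farther apart. With 10 kb the shares were 73.3% of ligands and 45.5% of receptors, against 33.6% of all genes. With 5 kb they were 46.7 and 22.7%, against 24.8% of all genes, so the receptors lay below that share. Around annotated starts alone they were 75 and 47.1%, with no share computed for all genes. With windows of 50 kb the order turned, at 73.3% of ligands and 81.8% of receptors, against 57.3% of all genes. With overlapping members merged to loci the roles lay closer in TSS-type area, at 63.6% of ligands and 61.1% of receptors. The medians there were 3.8 and 2.9 kb, with nothing computed for all genes merged alike. In E1 and E6 area the medians were 4.6 kb for ligands and 0.4 kb for receptors with only the nearest bins, and 8.8 and 1.7 kb with overlapping members merged to loci.

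State composition differed more between the roles, and much of that lay in the Tnf cluster. In DMSO, TSS-type states took 8.83% of the ligand area and 8.31% of the receptor area, and in GSK-LSD1 16.2 and 13.3%. Of the E5 area, 61.1% was E6 in GSK-LSD1 around ligands and 46.1% around receptors. Of the E4 area, 61.3% was TSS-type in GSK-LSD1 around ligands and 38.0% around receptors, against 40.4% around all protein-coding genes. Without Tnf, Lta and Ltb the ligand area was 7.43 and 12.4% TSS-type, below the receptor area in both maps. The share of its E5 that was E6 in GSK-LSD1 was then 48.7%, and the share of its E4 that was TSS-type 54.2%.

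Ligands and their receptors did not always differ in step. Tnf and both of its receptors had more TSS-type area, by 14.8 kb for Tnf, 11.6 kb for Tnfrsf1b and 4.2 kb for Tnfrsf1a. Tnfsf14 and its receptor Tnfrsf14 differed by 8.2 and 5.4 kb, and Tnfsf8 and its receptor Tnfrsf8 by 3.8 and 6.4 kb. Much of the area behind these values lay nearer to other genes: with only the nearest bins the differences were 1.8 kb for Tnf and 1.6 kb for Tnfrsf1a, and 1.4 kb for both Tnfrsf14 and Tnfrsf8. For Tnfsf10 and Tnfrsf10b the differences were 4.8 and 5.8 kb. In contrast, Tnfsf13b was 4.4 kb higher while among its receptors Tnfrsf13b was 4.8 kb higher and Tnfrsf13c and Tnfrsf17 each 0.4 kb higher. Tnfsf4 was 0.6 kb lower (-0.6 kb) and its receptor Tnfrsf4 4.6 kb higher. Tnfsf18 was at 0 in both maps while its receptor Tnfrsf18 was 3.2 kb higher. These contrasts shrink in the same way: nearest bins alone differed by 1.4 kb for Tnfrsf13b, 0 kb for Tnfrsf4 and 0.6 kb for Tnfrsf18. Tnfsf11, Tnfrsf11a and Tnfrsf11b, the ligand, receptor and decoy of osteoclast formation, differed by at most 0.4 kb.

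Other genes of the pathway were taken as 3 lists. Of 10 family genes with other symbols, 5 had more TSS-type area (against 66.1% of all genes), 1 less and 4 the same, and 3 were at least 2 kb higher. The share at least 2 kb higher (30.0%) lay below the 43.3% of all protein-coding genes. The 3 were Cd27, a lymphocyte costimulatory receptor, at 5.6 and 19.0 kb, Fasl, the ligand of Fas, at 5.0 and 11.4 kb, and Ltbr, the receptor for the lymphotoxin complex, at 4.0 and 7.8 kb. Relt, the fourth in size at 11.0 and 12.6 kb, had a TSS-type end in GSK-LSD1 only. The median change of this list was 0.7 kb. Windows of the pathway lists also hold other genes, and their nearest bins were not counted apart. The Ltbr window overlaps that of Tnfrsf1a, and both take in the region at 125329601 to 125332200 on chromosome 6.

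Downstream, the adaptors and proximal signalling genes all had more TSS-type area (22 of 22), 18 of them by at least 2 kb (81.8%), with a median change of 4.4 kb. More area of any size was found at 66.1% of all protein-coding genes and at 91.4% of those with TSS-type area in DMSO. Every gene of this list and of the NF-kB list below had such area in DMSO. At least 2 kb was reached by 43.3% of all protein-coding genes and by 61.1% of those with TSS-type area in DMSO. The largest differences were at Rbck1 (10 and 18.4 kb), a subunit of the linear ubiquitin ligase, Traf1 (3.6 and 11.6 kb), an adaptor, Cflar (15.8 and 22.4 kb), an inhibitor of caspase activation, and Rnf31 (22.6 and 29.2 kb), the catalytic subunit of the linear ubiquitin ligase. Tank, which binds TRAF proteins, had a TSS-type end in GSK-LSD1 only. All 13 NF-kB genes had more, 11 by at least 2 kb (84.6%), with a median of 3.8 kb. Nfkb1, which encodes an NF-kB subunit, had 8.2 and 17.6 kb, Bcl3, a nuclear regulator of NF-kB, 13.0 and 19.0 kb, and Ikbkb, a kinase that releases NF-kB, 8.2 and 13.8 kb. Genes in these lists had more TSS-type area in DMSO (medians 8.5 and 8.2 kb) than the members (5.0 kb). All genes with 8 to 16 kb in DMSO, the class of both list medians, had a median change of 4.6 kb. Both lists also held genes at lower levels, and all genes with 4 to 8 kb had a median change of 2.8 kb. The genes of these lists were not set against their classes singly.

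Markers were read the same way to check the labelled cells. Of 11 genes of granulocyte-monocyte progenitors and granulocytes, 5 had a TSS-type end in DMSO and 9 in GSK-LSD1, and all 11 had more TSS-type area. Over all protein-coding genes the shares were 51.7 and 54.8% with a TSS-type end and 66.1% with more area, or 91.4% of the genes with TSS-type area in DMSO. A TSS-type end was found in both maps at 1 of 6 B cell genes (Cd79a) and at 1 of 6 T cell genes (Cd3d), while Cd3e had none. Of 5 macrophage and dendritic cell genes, 1 had a TSS-type end in DMSO (Flt3) and 3 in GSK-LSD1 (Flt3, Adgre1 and Zbtb46), and Csf1r had no TSS-type area in either. Of 5 stromal and endothelial genes, 2 had one in DMSO and 1 in GSK-LSD1. Median TSS-type area per gene in DMSO and GSK-LSD1 was 5.0 and 14.0 kb for the granulocytic genes and 5.4 and 7.2 kb for T cell genes. For B cell genes it was 1.4 and 2.0 kb, for macrophage and dendritic cell genes 0.4 and 3.0 kb and for stromal genes 1.0 kb in both. In DMSO the granulocytic genes thus did not stand above the T cell genes. Some of these windows overlap, such as those of Elane and Prtn3. The part of these marker differences in the values of the TNF superfamily was not tested.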

How the data were processed

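Chromatin from mouse CEBPA/CSF3R leukaemia cells was precipitated with antibodies to 3 histone marks under 2 treatments, giving 6 precipitated libraries and 1 input, per the labels. The reads were aligned with Bowtie to mm10 (GRCm38), per the submitters' processing notes; its version is not stated there. The authors deposited 1 segmentation per treatment that pools its 3 marks, with a state name per segment (136061 segments in DMSO and 162731 in GSK-LSD1). The segmentation tool, its thresholds, whether both treatments were fitted together, the use of the input and the marks of each state are not stated in those sources. Calling states sets a threshold on signal: weak marks can be missed, and a cleaner or deeper library can call more bins. Read depth is unknown.

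Segments were expanded to 200 bp bins on chromosomes 1 to 19 and X. Gene ends came from the RefSeq table of GRCm38.p6, which gives no strand, so both ends were used. Starts, strands and sequences came from the RefSeq promoter table, which matched 29 of 37 members. Area in E5 or E6, and in E1 or E6, was summed within 20 kb of both ends, and a difference of at least 2 kb was called. Shares carry 95% Wilson intervals for the number of genes, and genes are not replicates. With 1 map per treatment there was no replicate to leave out and no p-value. The window calculation was tested on simulated data. Python 3.11.15, NumPy 2.4.6, pandas 2.3.3, SciPy 1.17.1 and matplotlib 3.10.9 were used.

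The symbol rule for the members, the roles of the states and the pathway and marker lists were chosen with earlier results of these data known. Named in full were members whose gene-end role differed, the 8 largest increases in TSS-type area and the 4 largest increases in E1 and E6 area. Up to 4 decreases in TSS-type area were also taken, and only Tnfsf4 had one. Tnf, Lta, Ltb, Fas, Cd40, Tnfrsf1a and Tnfrsf1b were added by name, and the other members were given by value. Of each pathway list the rule took the 4 largest changes and any gene whose end role differed. Nfkb2 and Rela shared the fourth place in the NF-kB list, each 4.6 kb higher, and were not described. Alternatives covered the window, the states counted, the ends used, single-bin segments, boundary shifts, neighbouring genes, merged loci and the size of a call. Signal tracks and reads were not analysed here.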

Additional observations from a re-analysis of the deposited data

How the results depend on the processing

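Of 92 comparisons of the shares, medians and counts with 15 alternative settings, 49 stayed within the Wilson interval of the reported share or within 1.5 times the reported value, 42 moved beyond it and 1 changed sign. With E5 alone counted, the share of genes at least 2 kb higher was 16.2% of members (all genes 8.8%), 6.67% of ligands and 22.7% of receptors, the medians were -0.4 kb for ligands and 0 kb for receptors, and ends found in only GSK-LSD1 or DMSO were 1 and 8. Of the 19 members with less area under E5 alone, all but Tnfsf4 had more as reported. Among the 13 members followed singly through the alternatives these were Lta (-12.0 kb), Tnf (-11.8), Ltb (-9.0), Tnfrsf1a (-6.6), Tnfrsf8 (-4.0), Tnfrsf1b (-2.0), Tnfsf14 (-1.6) and Tnfsfm13 (-0.4), and among the others Tnfsf8, Tnfsf10, Tnfsf13, Tnfrsf4, Tnfrsf9, Tnfrsf12a, Tnfrsf13b, Tnfrsf18, Tnfrsf22 and Tnfrsf26. The results thus depend on counting E6.

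With windows of 5 kb the shares were 32.4% of members (all genes 24.8%), 46.7% of ligands and 22.7% of receptors, with medians of 1.8 and 1.0 kb in TSS-type area and 2.8 and 1.6 kb in E1 and E6 area for ligands and receptors. With 10 kb the receptor share was 45.5% (all genes 33.6%) and its median 1.3 kb, and the E1 and E6 medians were 4.6 and 4.3 kb. With 50 kb the medians were 7.4 and 5.7 kb in TSS-type area and 19.4 and 14.5 kb in E1 and E6 area. With only the bins nearest to the member, the shares were 32.4% of members (all genes 23.4%), 40.0% of ligands and 27.3% of receptors, with medians of 1.8 and 1.2 kb, and of 4.6 and 0.4 kb in E1 and E6 area. Around annotated starts alone the receptor share was 47.1%, with none computed for all genes, and its median was 1.8 kb. The E1 and E6 medians there were 13.5 and 4.4 kb, and the count of ends found in GSK-LSD1 only was 0.

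With overlapping members merged to loci the receptor median in E1 and E6 area was 1.7 kb, and 1 locus had an end in GSK-LSD1 only. That count was also 1 without Tnf, Lta and Ltb, and reading any bin within 1 kb of an end gave 1 end in DMSO only. A call of at least 4 kb was met by 45.9% of members, 60.0% of ligands and 36.4% of receptors. No share was computed for all genes, so these shares have no background to be read against. Any increase was met by 89.2% of members, 80.0% of ligands and 95.5% of receptors, against 66.1% of all genes. With E2 as background the median change in marked area was 8.0 kb, against 0 kb with E3 alone. Leaving out Tnf, Lta and Ltb, and setting members against genes with TSS-type area in DMSO, were chosen after seeing the data. No paired analysis was possible because each treatment has 1 segmentation and no replicate.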
